A study of Mus musculus with 10 samples.

Results

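The genes described are 51 components of cyclic AMP (cAMP) and protein kinase A (PKA) signalling, selected by gene symbol and not by a measured value. They comprise G-protein alpha subunits, adenylyl cyclases, cyclic nucleotide phosphodiesterases, the catalytic and regulatory subunits of PKA, the PKA inhibitor peptides, A-kinase anchoring proteins (AKAPs) and the Epac exchange factors. Of these, 50 matched a row among the 55414 gene rows, and 42 of the 50 were above 0 in at least 1 sample. Akap2 matched no row by symbol. The gene identifier that GENCODE pairs with Akap2, ENSMUSG00000038729, is listed under the symbol Pakap at 17.0 to 24.1 TPM (transcript abundance scaled to length and library), and it was not counted among the matched members.

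RNA was measured by RNA-seq in mpkCCD cells, an immortalised mouse cortical collecting duct line, in 5 samples with intact Camk2d and 5 clones in which Camk2d, the gene of the delta isoform of calcium/calmodulin-dependent kinase 2, was mutated with CRISPR-Cas9. Intact 1 was the untransfected parental line, intact 2 and 3 were samples of one clone that had been through transfection and kept its CAMK2D (intact clone 1), and intact 4 and 5 were samples of another (intact clone 2). The 5 intact samples therefore represent 3 cell lines. KO 1 and KO 2 carried mutations from a guide to exon 8, and KO 3, KO 4 and KO 5 from a guide to exon 9, both in the part that encodes the kinase domain. The sample labels give a KO clone number and no guide, so the guide was taken from the study's clone table by matching that number. Each clone grew from a sorted single cell, so a difference between clones includes whatever set the founder cells apart. All 10 samples had been grown on membrane filters for 7 days with 0.1 nM dDAVP, an agonist of the vasopressin V2 receptor, and none was grown without it. The state described is therefore that of cells under continuous stimulation. Whether the paired samples of an intact clone came from separate cultures was not given in the sources used here, and p-values then measure the spread between these samples, part of which may be technical.

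Vasopressin acts on collecting duct principal cells through the V2 receptor, which couples to the stimulatory G protein and so to adenylyl cyclase. The cAMP made there frees the PKA catalytic subunits from their regulatory subunits and also opens Epac, an exchange factor for the small GTPase Rap. Phosphodiesterases break cAMP down, and AKAPs hold PKA near its substrates. In principal cells the pathway controls the phosphorylation, trafficking and transcription of the water channel aquaporin-2, and calcium with calmodulin, which also activates CAMK2, meets it at certain adenylyl cyclases and at the PDE1 phosphodiesterases.

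Values are TPM, a transcript abundance scaled to length and to a fixed total per sample, so levels of different genes can be set side by side but sequencing depth is unknown and no detection limit is given. In bulk RNA, fewer cells of a type and less RNA per cell cannot be told apart. Camk2d was at 141, 134, 135, 129 and 123 TPM in intact 1 to 5 and at 25.5, 19.8, 23.2, 29.8 and 25.2 TPM in KO 1 to 5, so all KO clones were below the lowest intact sample and kept part of the transcript (log2 ratio -2.39, limma adjusted p = 1.20e-06). Of the principal cell markers examined, 8 of 10 had a mean of at least 1 TPM, led by Aqp2 (3773 to 5502 TPM intact and 1281 to 3789 TPM KO), while Elf5 was listed at 0 in 8 samples and Scnn1b stayed at or below 0.39 TPM. The principal cell list summed to 4449 to 6217 TPM in intact samples and 2014 to 4568 TPM in KO clones, and without Aqp2 the other 9 summed to 676 to 715 TPM and 649 to 779 TPM. The 9 intercalated cell markers summed to 27.0 to 34.4 TPM and 27.1 to 57 TPM, nearly all from Atp6v1b1 and Aqp6, and the defining Foxi1, Slc4a1 and Slc26a4 reached at most 0.32 TPM. The 5 proximal tubule markers summed to at most 15.1 TPM, from Lrp2, and the 3 immune markers to at most 9.38 TPM, from Cd68. The lists for thick ascending limb, distal convoluted tubule, fibroblast and endothelium summed to at most 0.61 TPM in any sample. KO 2 stood apart from the other libraries: it was the highest or the lowest of the 10 in 50.7% of the 9252 genes with a mean of at least 10 TPM, and KO 1 in 35.8%, where every gene has 1 highest and 1 lowest library and the other 8 libraries were so in 9.73% to 19.6%.

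A mean of at least 1 TPM was reached by 28 of the 50 matched members and at least 10 TPM by 25. Of all 55414 gene rows, 13047 reached a mean of at least 1 TPM. In every family except the AKAPs 1 gene held most of the summed TPM, from 61.2% for Gnas among the G-protein alpha subunits to the whole for Rapgef3 among the Epac genes (means over intact samples). Another 8 members were listed at 0 in all 10 samples, namely Gnai1, Adcy1, Adcy2, Adcy4, Pde3a, Pde3b, Pkib and Rapgef4, and 6 were above 0 in at least 1 sample but never above 0.08 TPM, namely Adcy8, Pde1a, Pde1b, Pde1c, Pde8a and Akap6. Adcy1 and Adcy8, cyclases that calcium with calmodulin stimulates, and Pde1a, Pde1b and Pde1c, the phosphodiesterases that it activates, were all among these 14. Adcy3, which calmodulin can also stimulate, was above 0 in every sample, at 0.38 to 0.83 TPM. The plot of levels by role shows the 28 members with a mean of at least 1 TPM.

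**Figure D1:**
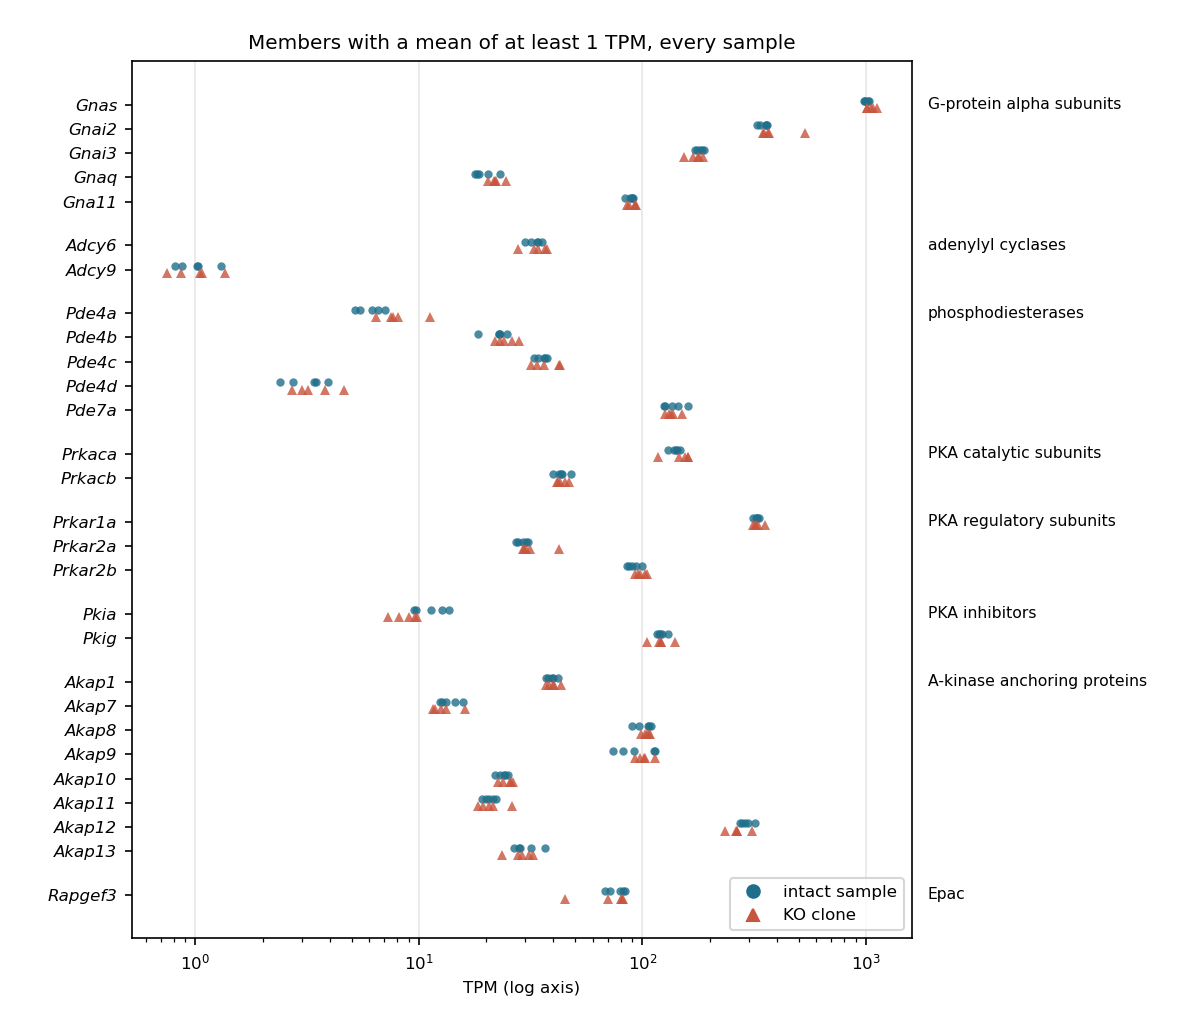
TPM (log axis) of the 28 members with a mean of at least 1 TPM, grouped by role; each circle is an intact sample and each triangle a KO clone, 5 of each per gene. Gnas lies highest, at 983 to 1117 TPM, and in no row do the circles and triangles separate.

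Of the 36 members that entered the comparison of KO clones with intact samples across all genes, 0 passed the test (limma on log2(TPM + 1), Benjamini-Hochberg adjustment over the 20000 genes tested). The lowest adjusted p of a member was 0.619, for Pkia. In the same comparison 0.005% of the genes tested passed an adjusted p of 0.05, which was Camk2d alone. The paper reports that its own test, on expected counts, called more transcripts, gasdermin genes among them. At an unadjusted limma p under 0.05 there were 2 members, Pde4a higher and Pkia lower, which is 5.56% of the 36 members against 6.99% of all genes tested. With 1 value per cell line Pkia alone was under that p (2.78%, against 3.81% of all genes). With cell line as a random effect Pde4a alone was (2.78%, against 3.73%). By an exact two-sided permutation test, whose smallest possible p with 5 against 5 samples is 0.00794, 3 members (Gnas, Pde4a and Pkia) were under 0.05, against 7.15% of all genes. The permutation takes all samples as independent, although the 5 intact samples came from 3 cell lines, so its p-values may be too small. The 5 KO clones lay wholly to one side of the 5 intact samples in 0 members and in 1.64% of all genes.

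The log2 ratios of the 36 members ran from -0.34 (Pkia) to 0.35 (Pde4a), with a median of 0.03 beside 0.02 over all genes tested. Of the 28 members with a mean of at least 1 TPM, 26 had a 95% interval that lay within 0.5 log2 units of 0, and 15 had one within 0.25. These bounds describe how large a change these samples leave room for and do not show that the groups were the same. The fit took the 5 intact samples as independent although they came from 3 cell lines, so the intervals may be too narrow. On the log2(TPM + 1) scale a ratio near 1 TPM is also understated, as for Adcy9 (mean 1.01 TPM, interval -0.23 to 0.24). By sign, 25 ratios were above 0 and 11 below, against 57.3% above 0 over all genes. With the TPM columns rescaled by the median of gene ratios the split became 19 and 17, beside 50.2% above 0 over all genes, and with quantile normalization 20 and 16, beside 51.4%. Median-ratio rescaling moves all genes of a column together. Quantile normalization did not: the ratio of Gnas rose from 0.07 to 0.12 while that of Gnaq fell from 0.17 to 0.13. The sign of ratios this close to 0 depends on how the columns are scaled.

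**Figure D2:**
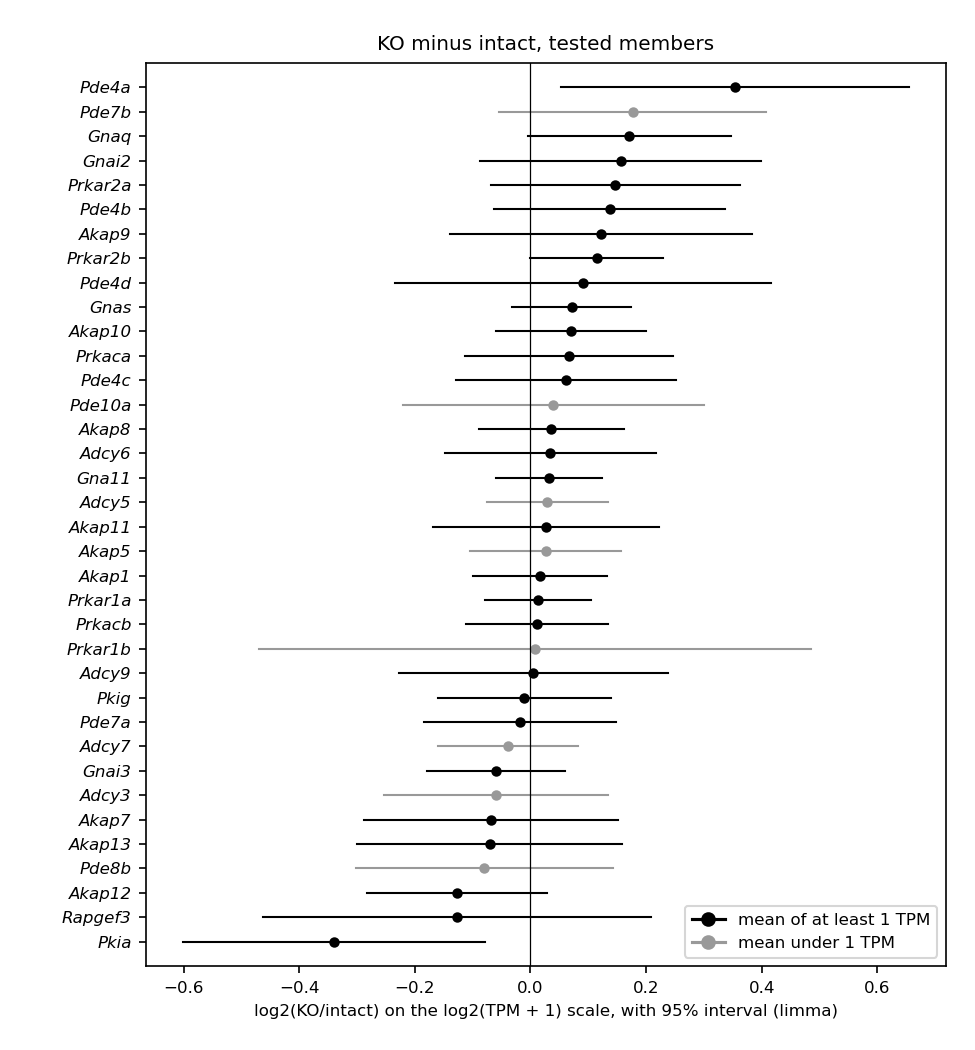
KO over intact as a log2 ratio, taken from log2(TPM + 1) values, with its 95% interval from limma for the 36 members tested, ordered by value; black points have a mean of at least 1 TPM and grey points less. The points run from -0.34 (Pkia) to 0.35 (Pde4a), and only these 2 intervals leave out 0.

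Among the G-protein alpha subunits, Gnas, which encodes the stimulatory subunit that the V2 receptor uses, was the most abundant. Its values were 983, 993, 1023, 991 and 1031 TPM in intact 1 to 5 and 1055, 1117, 1015, 1081 and 1011 TPM in KO 1 to 5. The groups overlapped, because KO 3 and KO 5 lay among the intact samples. The means were 1004 ± 21.2 TPM in intact samples and 1056 ± 44.7 TPM in KO clones (SD, n = 5 each), and KO over intact gave a log2 value of 0.07 (95% interval -0.03 to 0.17, limma adjusted p = 0.778, exact permutation p = 0.0476). The Gnas row also collects transcripts that start upstream and encode other products of this imprinted locus. Of its possible 50-base stretches, 81.4% occur in no other annotated gene, with Gm20721 the main sharer, so part of its level is uncertain.

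The inhibitory subunits Gnai2 and Gnai3, which restrain adenylyl cyclase, followed at lower levels than Gnas, and Gnai1 was listed at 0. Gnai2 stood at 325, 357, 359, 337 and 360.3 TPM in the intact samples and at 364, 536, 350.4, 346 and 368 TPM in the KO clones. KO 2 was far above the other 9 libraries, which lay between 325 and 368 TPM. With it the log2 ratio was 0.16 (95% interval -0.09 to 0.40, limma adjusted p = 0.806) and without it 0.04. Gnai3 was at 189, 175, 184, 180.3 and 173 TPM in intact 1 to 5 and 169, 154, 178, 187 and 178 TPM in KO 1 to 5, means of 180.2 ± 6.84 TPM in intact samples and 173 ± 12.6 TPM in KO clones, which as a log2 ratio is -0.06 (limma adjusted p = 0.82). KO 2 had the lowest Gnai3 of all samples, 154 TPM, so its Gnai2 to Gnai3 ratio was 3.49 where the other KO clones had 1.85 to 2.15 and the intact samples 1.72 to 2.09. The summed inhibitory subunits stood to Gnas as 0.526 ± 0.00745 in intact samples and 0.535 ± 0.0492 in KO clones (SD, n = 5 each), with KO 2 at 0.617. Gnaq and Gna11 encode subunits that activate phospholipase C and so lead to calcium release. Gna11 was at 88.3 ± 3.11 TPM in intact samples and 90.4 ± 3.79 TPM in KO clones and Gnaq at 19.6 ± 2.19 TPM in intact samples and 22.1 ± 1.50 TPM in KO clones (log2 ratio 0.17, 95% interval -0.0044 to 0.35, limma adjusted p = 0.729).

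Adenylyl cyclase transcripts were almost entirely Adcy6, a cyclase that calcium inhibits. Adcy6 measured 35.4, 33.7, 34.1, 29.8 and 31.7 TPM in intact 1 to 5 and 36.8, 27.8, 34.3, 37.6 and 32.9 TPM in KO 1 to 5. The KO clones held both the lowest value (KO 2) and the highest (KO 4), and the groups overlapped fully. The log2 ratio was 0.03 (95% interval -0.15 to 0.22, limma adjusted p = 0.945). It made up 95.0% ± 0.427 of the summed cyclase TPM in intact samples and 95.2% ± 1.28 in KO clones (SD, n = 5 each). Adcy9 was next, at 1.01 ± 0.19 TPM in intact samples and 1.02 ± 0.23 TPM in KO clones. Adcy3, Adcy5 and Adcy7 stayed under 1 TPM throughout. Of the 50-base stretches of Adcy6, 92.6% occur in no other annotated gene. These levels place Adcy6 far above every other cyclase in each of the 10 samples.

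**Figure D3:**
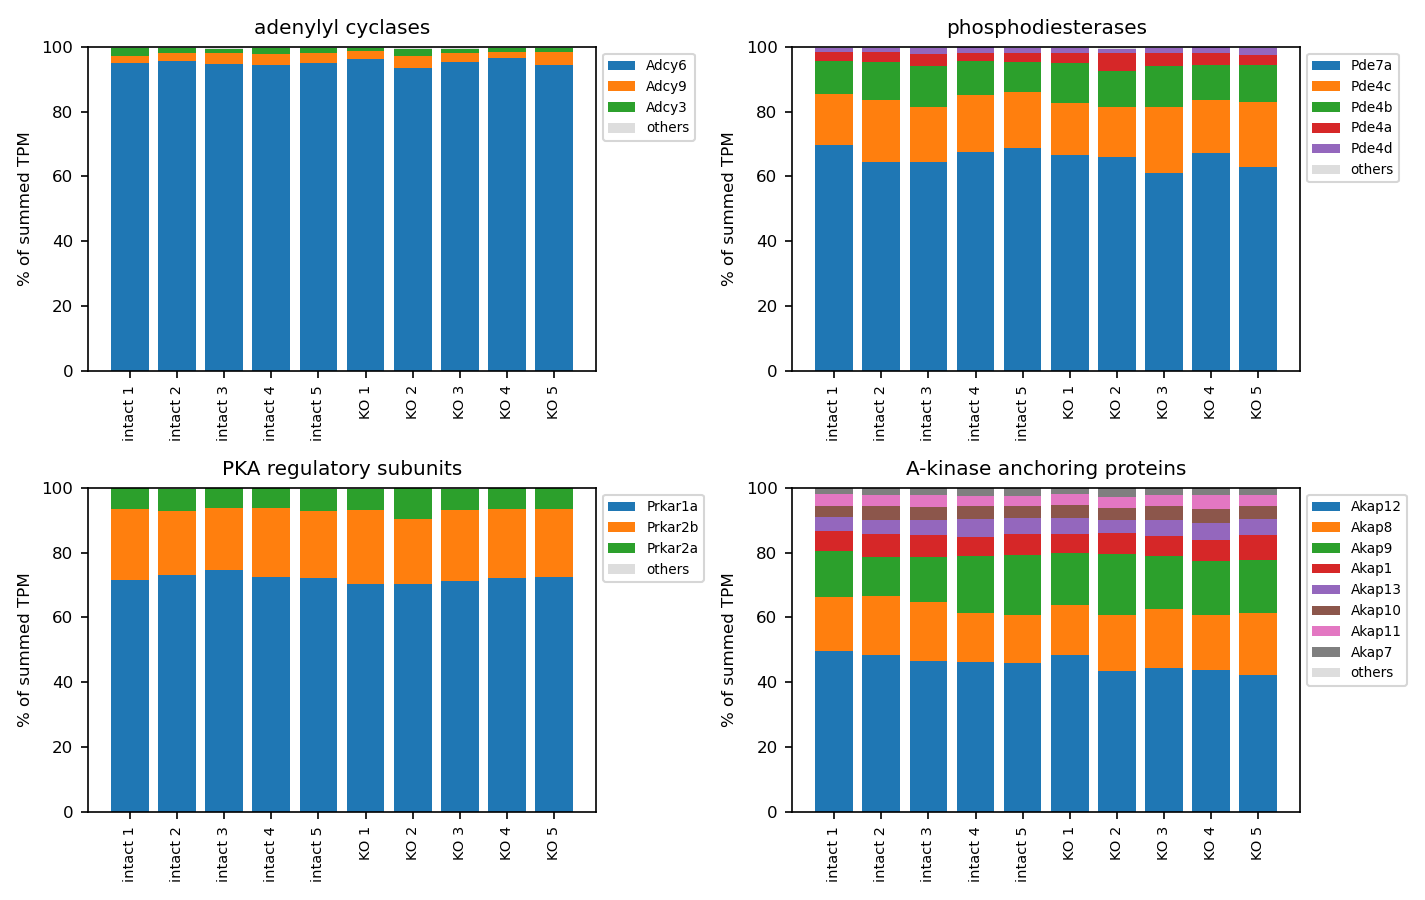
Share of the summed TPM (%, stacked to 100) of each member of 4 families in each of the 10 samples, intact 1 to 5 and then KO 1 to 5; members with a mean share under 0.5% are pooled as others. Adcy6, Pde7a, Prkar1a and Akap12 are the largest parts in every sample, with intact means of 95.0%, 67.0%, 72.9% and 47.3%.

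Phosphodiesterase transcripts were led by Pde7a, a cAMP-specific enzyme. Pde7a values were 161, 125, 126, 144 and 136 TPM in intact samples and 151, 134, 126, 138 and 132 TPM in KO clones. The parental line was highest and the 2 groups overlapped throughout, with a log2 ratio of -0.02 (95% interval -0.18 to 0.15, limma adjusted p = 0.976). Pde7a was 67.0% ± 2.43 of the family total in intact samples and 64.7% ± 2.67 in KO clones. The PDE4 enzymes, which are also specific for cAMP and which PKA itself activates in their long forms, made up most of the remainder. Pde4c was at 35.5 ± 1.89 TPM in intact samples and 37.3 ± 5.00 TPM in KO clones, Pde4b at 22.3 ± 2.40 TPM in intact samples and 24.6 ± 2.49 TPM in KO clones and Pde4d at 3.19 ± 0.62 TPM in intact samples and 3.47 ± 0.766 TPM in KO clones. Their log2 ratios were 0.06, 0.14 and 0.09, with limma adjusted p of 0.896, 0.781 and 0.911.

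Pde4a had the highest ratio of the 36 members. It stood at 6.56, 6.18, 7.07, 5.48 and 5.18 TPM in intact 1 to 5 and at 7.48, 11.2, 8.05, 7.64 and 6.41 TPM in KO 1 to 5. KO 1 to KO 4 were above every intact sample, and KO 5 lay among them. The log2 ratio was 0.35 (95% interval 0.05 to 0.66), with an exact permutation p of 0.0238 and a limma adjusted p of 0.651, so it did not pass once all genes were taken into account. KO 2 was the highest here too, and without it the ratio was 0.25 (limma adjusted p = 0.623). Of the intact samples, those of intact clone 2 were lowest, and the difference between the intact clones (clone 2 minus clone 1) was -0.27 on the log2 scale. Pde8b and Pde10a stayed at or below 0.54 TPM. Pde3a and Pde3b, the enzymes that cGMP inhibits, were listed at 0.

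Of the PKA catalytic subunits, Prkaca was the more abundant. It measured 131, 147, 142, 142 and 139 TPM in intact samples and 117, 159, 159.9, 155 and 146 TPM in KO clones. KO 1 was the lowest of all samples and KO 2, KO 3 and KO 4 the highest, so the KO clones spread more widely than the intact samples and on both sides of them. The log2 ratio was 0.07 (95% interval -0.11 to 0.25, limma adjusted p = 0.871). It depended on KO 1: without that clone it was 0.15 (limma unadjusted p = 0.00895, adjusted p = 0.48), and with the exon 9 clones alone 0.13 (unadjusted p = 0.0207, adjusted p = 0.467). Prkacb was at 43.4 ± 2.84 TPM in intact samples and 43.7 ± 2.33 TPM in KO clones, and Prkaca held 76.3% ± 1.81 of the catalytic total in intact samples.

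Prkar1a, which encodes the type I alpha regulatory subunit, was the most abundant PKA gene. Its levels were 326, 325, 333, 323 and 313 TPM in intact 1 to 5 and 313, 318, 321, 353 and 331 TPM in KO 1 to 5. Its groups overlapped, and the interval of the log2 ratio was among the narrowest, -0.08 to 0.10 around 0.01 (limma adjusted p = 0.965). The type II beta subunit, Prkar2b, was at 91.1 ± 5.61 TPM in intact samples and 98.6 ± 5.07 TPM in KO clones, a log2 ratio of 0.11 (95% interval -0.0014 to 0.23, limma adjusted p = 0.723). The type II alpha subunit, Prkar2a, was at 27.2 to 30.8 TPM in intact samples and 29.2 to 31.4 TPM in 4 KO clones, while KO 2 was at 42.5 TPM. Its log2 ratio was 0.15 with KO 2 and 0.05 without it (limma adjusted p = 0.783 with it). Prkar1b, the type I beta subunit, had 0.15 to 1.42 TPM. Summed regulatory subunits stood to summed catalytic subunits as 2.43 ± 0.0781 in intact samples and 2.41 ± 0.208 in KO clones, and type I to type II as 2.71 ± 0.164 and 2.50 ± 0.124 (SD, n = 5 each). These are ratios of transcripts and not of protein.

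The PKA inhibitor peptides bind the free catalytic subunit and block it. Pkig was the most abundant, at 123, 119, 116, 129.8 and 120.3 TPM in intact samples and 140.1, 105, 119, 121 and 122 TPM in KO clones. KO 1 was the highest of the 10 samples and KO 2 the lowest, and the log2 ratio was -0.01 (95% interval -0.16 to 0.14, limma adjusted p = 0.987). Pkib was listed at 0 in every sample. Pkia had the lowest ratio of the 36 members. Its values were 9.75, 13.7, 9.48, 12.8 and 11.3 TPM in intact 1 to 5 and 9.58, 8.99, 7.28, 9.8 and 8.13 TPM in KO 1 to 5. The parental line and intact 3 lay within the range of the KO clones, and the other 3 intact samples lay above all of them. The log2 ratio was -0.34 (95% interval -0.60 to -0.08), with an exact permutation p of 0.0397 and a limma adjusted p of 0.619, so it did not pass over all genes. The ratio was -0.26 for the exon 8 clones and -0.40 for the exon 9 clones against intact samples, with limma adjusted p of 0.527 and 0.49. Both inhibitors summed stood to the catalytic subunits as 0.726 ± 0.0357 in intact samples and 0.689 ± 0.138 in KO clones, whose values ran from 0.565 in KO 2 to 0.921 in KO 1.

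**Figure D4:**
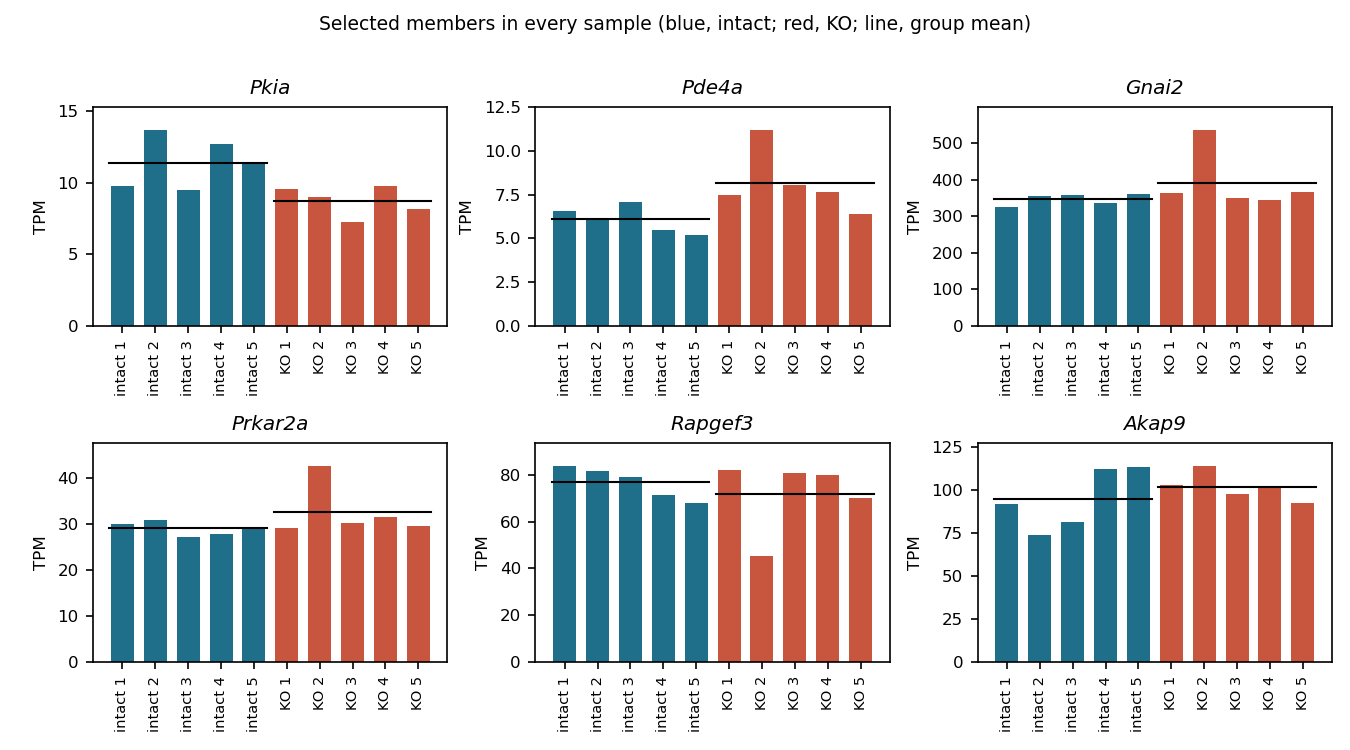
TPM of 6 members in every sample (blue bars, intact 1 to 5; red bars, KO 1 to 5; axis from 0), with the group mean as a black line. KO 2 is the highest library for Gnai2 (536 TPM) and Prkar2a (42.5 TPM) and the lowest for Rapgef3 (45.1 TPM), and for Pkia 3 intact bars rise above all KO bars.

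AKAP transcripts were shared among more genes than those of any other family, with 8 at a mean of at least 10 TPM. Akap12, the scaffold also called gravin, was the most abundant, at 319, 289, 274, 297 and 279 TPM in intact samples and 309.6, 263, 264, 267 and 235 TPM in KO clones. KO 5 was the lowest and the parental line the highest, and KO 1 lay near the top of the intact range. The log2 ratio was -0.13 (95% interval -0.28 to 0.03, limma adjusted p = 0.759). Without KO 1 it was -0.18 (limma unadjusted p = 0.0105, adjusted p = 0.492). With the exon 9 clones alone it was -0.19 (unadjusted p = 0.015, adjusted p = 0.446), and with the exon 8 clones alone -0.03. The share of Akap12 in the summed AKAP TPM was 47.3% ± 1.58 in intact samples and 44.4% ± 2.36 in KO clones, a description without a test. Akap8, a nuclear anchoring protein, was at 102 ± 8.05 TPM in intact samples and 104 ± 3.91 TPM in KO clones. Akap9, which anchors PKA at the Golgi and centrosome, was at 91.8, 73.6, 81.8, 113 and 113 TPM in intact samples and 103, 114, 98.0, 101 and 92.7 TPM in KO clones. The samples of intact clone 1 were the lowest of all for Akap9 and those of intact clone 2 near the highest, and all KO clones lay above intact clone 1 (log2 ratio 0.12, limma adjusted p = 0.83).

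The remaining AKAPs had overlapping groups and did not pass the test. Akap1, which sits on the mitochondrial outer membrane, was at 39.2 ± 1.89 TPM in intact samples and 39.7 ± 2.29 TPM in KO clones. Akap13 was at 30.3 ± 4.11 TPM in intact samples and 28.8 ± 3.41 TPM in KO clones, Akap10 at 23.6 ± 1.20 TPM in intact samples and 24.9 ± 1.56 TPM in KO clones, Akap11 at 20.7 ± 1.19 TPM in intact samples and 21.2 ± 2.99 TPM in KO clones and Akap7 at 13.7 ± 1.41 TPM in intact samples and 13.1 ± 1.77 TPM in KO clones. Their log2 ratios lay between -0.07 (Akap13) and 0.07 (Akap10). Akap5, a plasma membrane scaffold, reached at most 0.25 TPM.

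Of the Epac genes Rapgef3 (Epac1) was expressed and Rapgef4 (Epac2) was listed at 0. Rapgef3 was at 83.6, 81.7, 79.0, 71.6 and 68.0 TPM in intact samples and 82.3, 45.1, 80.9, 80.0 and 69.9 TPM in KO clones. KO 2 was far below the other 9 samples, and the other 4 KO clones lay within the intact range. The log2 ratio was -0.13 with KO 2 (95% interval -0.46 to 0.21, limma adjusted p = 0.867) and 0.03 without it. The antisense gene Rapgef3os2 shares part of its sequence, 96.2% of its 50-base stretches being its own, and reads of the pair cannot be told apart if strand was not recorded.

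KO 2 thus departed from the other libraries in Gnai2, Prkar2a and Rapgef3. These were 3 of the 25 members with a mean of at least 10 TPM, and among all genes at that level KO 2 lay outside the other 9 samples by over 0.25 log2 units in 13.9%. The share of members that departed was therefore close to that of genes in general. KO 2 also had the lowest Avpr2 (the V2 receptor gene), 114 TPM against 192 to 264 TPM in the other KO clones and 222 to 251.8 TPM in intact samples, and whether that moved the members was not tested.

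The KO clones made with the guide to exon 9 were also compared with those made with the guide to exon 8. With an adjusted p of 0.05, limma called 0.31% of all genes tested in this comparison and 1 member, Pde7b. At an unadjusted p under 0.05 there were 3 members (Gnai2, Gnai3 and Pde7b), 8.33% of the 36 against 12.1% of all genes. These backgrounds were unstable: the genes called by limma numbered 62, 6 with 1 value per cell line, 21 to 25 without any 1 of intact 2 to 5, 634 without KO 2 and 1730 without KO 1, and those at an unadjusted p under 0.05 went from 2423 to 4650 without KO 1. Pde7b, which encodes a cAMP-specific phosphodiesterase, was listed at 0 in intact 1 to 5 as well as in KO 3, KO 4 and KO 5, and stood at 0.43 TPM in KO 1 and 0.29 TPM in KO 2. The exon 9 minus exon 8 difference was -0.44 on the log2(TPM + 1) scale (95% interval -0.59 to -0.29, limma adjusted p = 0.0406). Pde7b passed the filter on mean TPM only through the exon 8 clones, so it had to differ to be tested and the call is not independent of the filter. This scale understates a change at such low values, and no fold is given against a group listed at 0. With 1 value per cell line the adjusted p was 0.122, and with cell line as a random effect it was 0.0646, so the call did not hold once the paired intact samples were treated as related. Over 16 alternatives its adjusted p ran from 0.00228 to 0.122 and was under 0.05 in 7. Gnai2 differed by -0.32 (95% interval -0.61 to -0.02, limma adjusted p = 0.394), a difference that was -0.04 without KO 2 and -0.59 without KO 1 (limma adjusted p = 0.00264). Gnai3 differed by 0.17 (95% interval 0.03 to 0.30, limma adjusted p = 0.329) and by 0.10 without KO 2 and 0.24 without KO 1 (limma adjusted p = 0.0493). With KO 1 left out, KO 2 alone stands for the exon 8 guide and is assumed to vary like the other groups. The exon 8 guide was represented by 2 clones, which limits this comparison.

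The intact clones gave a rough measure of how far clones of these cells differ with Camk2d present, from 2 clones with 2 samples each. In 15 of the 28 members with a mean of at least 1 TPM (53.6%) the 2 samples of intact clone 1 did not overlap the 2 of intact clone 2, against 52.1% of the 13047 genes at that level. The median absolute difference between the intact clones was 0.0848 log2 units in members and 0.107 in all those genes. Akap9 had the largest, with a mean of 77.7 TPM in clone 1 and 113 TPM in clone 2, a difference of 0.54 on the log2 scale. That difference exceeds the largest KO minus intact ratio of any member, 0.35 for Pde4a. Between the 2 samples of one clone the median absolute difference in members was 0.0635 in clone 1 and 0.0791 in clone 2. These medians were near the one between clones. Within clone 1 the samples differed by 0.54 for Pde4d and 0.49 for Pkia.

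Promoter windows from RefSeq (build GRCm38.p6), 250 bases before to 50 after an annotated start, were read for 42 of the 51 members and searched on both strands for the cAMP response element TGACGTCA, the site of CREB, and for its shorter form TGACG, which reads CGTCA from the other strand and in both readings lies within the full element. The full element was found in 1 member, Prkar1a, in 2 of the 85 member windows, and in 1.79% of all windows. A gene counts if any of its windows matches, and members had 2.02 windows each where all genes had 1.22, so the short form is given per window. It was in 21 of 85 member windows (24.7%, against 20.8% of all windows), and for members with a mean of at least 1 TPM in 16 of 46 (34.8%, against 31.7% of the windows of all genes at that level). A match is a description of letters and not a bound site. Matches did not follow level throughout: Akap8 (103 TPM), Prkar2b (94.8 TPM) and Gna11 (89.4 TPM) had none, while Pde8a (0.03 TPM) and Pde1a (0.012 TPM) held the short form. The windows below are picked examples with and without a match, with the matches in capitals. Prkar1a had 6 windows, and one with the full element was taken. That window, at chr11:109650699-109650998 on the plus strand, holds the full element 49 bases before the start and a separate short form 187 bases before it. Rapgef3 at chr15:97767617-97767916 on the minus strand holds a short form 191 bases before the start. Pde7b, listed at 0 in 8 samples, at chr10:20548279-20548578 on the minus strand holds neither.
Prkar1a: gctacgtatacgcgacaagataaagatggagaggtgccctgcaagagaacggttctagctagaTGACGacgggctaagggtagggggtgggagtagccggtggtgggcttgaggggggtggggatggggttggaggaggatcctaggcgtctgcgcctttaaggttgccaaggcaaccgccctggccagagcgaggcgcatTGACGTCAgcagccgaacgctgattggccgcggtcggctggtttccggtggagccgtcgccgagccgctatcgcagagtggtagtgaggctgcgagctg
Rapgef3: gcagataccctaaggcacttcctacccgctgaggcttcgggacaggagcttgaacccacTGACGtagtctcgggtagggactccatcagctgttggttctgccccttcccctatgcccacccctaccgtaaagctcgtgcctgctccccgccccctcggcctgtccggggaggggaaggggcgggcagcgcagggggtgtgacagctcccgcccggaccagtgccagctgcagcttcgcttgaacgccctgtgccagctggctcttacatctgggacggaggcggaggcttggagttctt
Pde7b: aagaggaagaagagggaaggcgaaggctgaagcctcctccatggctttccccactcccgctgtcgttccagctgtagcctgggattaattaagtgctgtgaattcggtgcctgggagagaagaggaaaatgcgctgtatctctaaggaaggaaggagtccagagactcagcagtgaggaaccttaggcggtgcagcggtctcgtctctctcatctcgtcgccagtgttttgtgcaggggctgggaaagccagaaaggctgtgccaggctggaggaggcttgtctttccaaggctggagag

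Members listed at 0 mostly had CpG-rich promoter windows. The 7 windows of the 6 members listed at 0 that had one held a median of 32 CpG pairs, beside 20.5 in windows of members with a mean of at least 1 TPM. Over all genes the medians per window were 3 for genes listed at 0 and 21 for genes at or above 1 TPM. Gnai1 (53 CpG pairs), Rapgef4 (40), Adcy1 (37) and Adcy2 (32) were the richest of the members listed at 0, and Adcy4 (16) and Pkib (7) the poorest. No test was made of these counts, which describe DNA sequence and not its methylation.

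Around the members, 97 further gene rows of the pathway were examined in 6 lists, with members and the row taken for Akap2 left out of this total. Of these rows 81 were tested, 0 passed an adjusted limma p of 0.05, and at an unadjusted p under 0.05 there were 7 higher and 0 lower in KO clones (background 4.53% and 2.46% of all genes), with a median log2 ratio of 0.06. Under median-ratio rescaling the count was 5 higher and 0 lower. Without KO 2 it was 8 higher and 1 lower. Among other G-protein subunits 0 of 21 tested were under that p in KO minus intact, and the most abundant was Gnb1, a beta subunit, at 630.1 ± 41.8 TPM in intact samples and 623 ± 26.4 TPM in KO clones (log2 ratio -0.02, limma adjusted p = 0.971). Among the phosphatases and inhibitors that reverse PKA phosphorylation 0 of 10 were, and the most abundant was Ppp1ca, the alpha catalytic subunit of protein phosphatase 1, at 1592 ± 73.1 TPM in intact samples and 1606 ± 96.4 TPM in KO clones (log2 ratio 0.01, limma adjusted p = 0.982).

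In the guide comparison 13 of the 81 pathway rows had an unadjusted limma p under 0.05 (16.0%, against 12.1% of all genes) and 1 was called at an adjusted p of 0.05 (1.23%, against 0.31%). That was Gng5, a G-protein gamma subunit, named after its values were seen. It measured 433, 409.9, 424, 422 and 439.5 TPM in intact 1 to 5 and 316, 294, 428, 433 and 437 TPM in KO 1 to 5, so both exon 8 clones were below the other 8 samples. The exon 9 minus exon 8 difference was 0.50 on the log2 scale (95% interval 0.39 to 0.62, limma adjusted p = 0.00874). It was 0.56 without KO 1 and 0.45 without KO 2. With cell line as a random effect its adjusted p was 0.0145, and with 1 value per cell line 0.055, above the threshold, so the call was lost there.

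In the list of other cAMP enzymes, transporters and effectors 3 of 13 were higher at that p. Hcn2, a channel that cAMP opens, was at 7.11, 7.68, 7.26, 6.31 and 7.65 TPM in intact samples and 8.61, 9.71, 7.95, 9.21 and 9.28 TPM in KO clones. Every KO clone lay above every intact sample. The means were 7.20 ± 0.556 TPM in intact samples and 8.95 ± 0.684 TPM in KO clones (log2 ratio 0.28, limma adjusted p = 0.559). The exact permutation p of Hcn2 was 0.00794, the smallest possible when all samples are taken as independent. The intact samples came from 3 cell lines, so this p may be too small. Rapgef1, a Rap exchange factor that cAMP does not bind, was at 11.5 ± 0.66 TPM in intact samples and 13.1 ± 0.968 TPM in KO clones, a ratio of 0.18 in log2 units (limma adjusted p = 0.672). Popdc2, a cAMP-binding membrane protein, was at 0.062 ± 0.0286 TPM in intact samples and 0.35 ± 0.258 TPM in KO clones. The Popdc2 groups overlapped, at 0.03 to 0.1 TPM in intact samples and 0.07 to 0.76 TPM in KO clones. Its difference was 0.33 on the log2(TPM + 1) scale (limma adjusted p = 0.619), which understates a change at values this low. Of the other anchoring proteins 1 of 15 was, Wasf1, an actin regulator that binds PKA. It was at 3.98, 2.76, 2.58, 4.67 and 4.66 TPM in intact samples and 7.03, 14.5, 4.86, 5.82 and 5.95 TPM in KO clones, which did not overlap, with KO 2 highest (means of 3.73 ± 1.01 TPM in intact samples and 7.62 ± 3.90 TPM in KO clones, log2 ratio 0.80, limma adjusted p = 0.569). Among the 81 pathway rows tested, Hcn2 and Wasf1 alone had groups without overlap, where 1.64% of all genes tested had such groups.

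Of the coactivators and kinases that PKA regulates 2 of 11 were, Atf1, a transcription factor of the CREB family (31.6 ± 0.705 TPM in intact samples and 38.3 ± 4.59 TPM in KO clones, log2 ratio 0.26, limma adjusted p = 0.555), and Crtc1, a coactivator of CREB (20.4 ± 1.01 TPM in intact samples and 23.1 ± 2.40 TPM in KO clones, log2 ratio 0.17, limma adjusted p = 0.701). Of the immediate cAMP-responsive genes 1 of 15 was, Cited2, a transcriptional coregulator, at 295 ± 19.3 TPM in intact samples and 335 ± 26.8 TPM in KO clones (log2 ratio 0.18, limma adjusted p = 0.631). Pde4b and Pde4d, members that are also cAMP-responsive genes, had adjusted p of 0.781 and 0.911 in the same limma fit.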

How the data were processed

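RNA from 5 intact and 5 KO samples was sequenced as amplified cDNA. The authors used STAR for alignment, Ensembl for annotation and RSEM for quantification, and the deposited values are TPM per gene. The authors' own test ran on expected counts, which were not used here, and TPM keep no depth. All 10 columns were used.

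Genes were ranked by mean TPM, and the top 20000 were compared as log2(TPM + 1), pseudocount 1, with limma 3.58.1 in R 4.3.3 (eBayes with trend, Benjamini-Hochberg over those genes, threshold 0.05), and the procedure was tested on simulated data. The comparison of guides used all samples in 3 groups. Single members were also compared by exact permutation (all arrangements of 5 against 5 samples). Members and lists were chosen with earlier results of these data known. Values in every sample are given for the most abundant member of each role and for members with an adjusted or unadjusted p under 0.05 or with groups that do not overlap. In the 6 pathway lists group means, the ratio and its adjusted p are given for every gene with an unadjusted p under 0.05 in KO minus intact or, where none, the most abundant one. Of the 13 pathway rows under that p in the guide comparison only Gng5, the one called, is given. Members shown for other reasons (Prkar2a, Akap9 and the remaining members with levels) were chosen after their values were seen.

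Alternatives were another pseudocount, other filters, median-ratio and quantile scaling, 1 value per cell line, cell line as a random effect (statmod 1.5.0), each guide alone and each sample left out. The 2 fits of each guide alone with 1 value per cell line were added after seeing the data. Uniqueness of 50-base stretches used GENCODE M21 transcripts.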

Additional observations from a re-analysis of the deposited data

Results flagged for a closer look

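In 36 members tested in both groups, 72 groups of 5 samples were examined for a sample far from the rest, and 3 were found, where chance gives about 1 in 20 groups. Gnai2, an inhibitory G-protein alpha subunit, was at 535.66 TPM in KO 2, with the next KO clone at 368 TPM. Prkar2a, a type II regulatory subunit of PKA, was at 42.53 TPM in KO 2, with the next at 31.4 TPM. Adcy7, an adenylyl cyclase, was at 0.21 TPM in intact 3, with the next at 0.09 TPM, levels at which TPM values carry little precision.

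Pde7b was at 0 in the intact samples and the exon 9 clones and above 0 in both exon 8 clones, with an exon 9 minus exon 8 difference of -0.44 on the log2(TPM + 1) scale (limma adjusted p = 0.0406). The adjusted p was 0.0646 with cell line as a random effect and 0.122 with 1 value per cell line, and the gene entered the test only through the exon 8 clones, so the call is not independent of the filter on mean TPM and does not stand as a difference between guides.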

How the results depend on the processing

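Genes called in KO minus intact numbered 1 and became 2 with pseudocount 0.1, 50 with the exon 8 clones alone, 7 with those clones and 1 value per cell line, and 2 with the exon 9 clones and 1 value per cell line. Leaving out 1 sample gave 1 to 2 (2 without the parental sample or KO 2). For exon 9 minus exon 8 the count was 62, which fell to 6 with 1 value per line and to 36 with cell line as a random effect. Leaving out 1 sample gave 21 to 1730, with 1730 without KO 1 and 634 without KO 2, where the lone exon 8 clone is assumed to vary like the other groups. The cause was not tested. Median-ratio rescaling took the share of genes at an unadjusted p under 0.05 that were higher in KO from 64.7% to 48.6%, and quantile normalization to 52.4%.

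Of the members, 1 was called in KO minus intact under any alternative, Pde7b with the exon 8 clones alone (0.44, limma adjusted p = 0.0393), the clones through which it passed the filter, and with 1 value per cell line there the adjusted p was 0.468. Pkia and Pde4a kept their sign in 21 of 21 alternatives, with adjusted p of 0.482 to 1 and 0.323 to 1. An unadjusted p under 0.05 held in 18 and 15 of the 21. Of 798 member values under alternatives 67 changed sign, all of values not called. No paired analysis was possible because the sample numbers only name samples. Unknown depth limits what can be said of members under 1 TPM.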
